A study of Rattus norvegicus with 24 samples.

Results

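The liver response to a female's own high-fat diet (HFD) was examined across 2 grandpaternal lines of Sprague-Dawley rats. All 24 liver arrays entered the comparison, 11 from adult F2 females on the HFD and 13 from adult F2 females on chow, with the grandfather's diet as a covariate. The grandfathers (F0) had eaten chow (the chow line, GpatCD) or an HFD (the HFD line, GpatHF), and the females ate chow or an HFD, given as 42/45% of energy from fat, for 12 weeks. The groups were GpatCD-CD (chow line on chow, 7 arrays), GpatCD-HF (chow line on the HFD, 6), GpatHF-CD (HFD line on chow, 6) and GpatHF-HF (HFD line on the HFD, 5). No group carried a genetic alteration. The titles, source and tissue labels name liver, whereas the text on animal growth mentions dissection of gonadal fat. No label links a female to her litter or grandfather, so the p-values below measure the spread between arrays. Related females could make them too small or too large, depending on how litters were split between the diets.

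The liver makes cholesterol, fatty acids and bile acids, burns fatty acids between meals and clears hormones and foreign compounds. Dietary fat and cholesterol reach it in lipoprotein remnants, and sterol sensing by the SREBP factors turns the genes of cholesterol synthesis down when sterols are plentiful. Bile acids, fatty acids, glucocorticoids and feeding time act on other sets of liver genes through nuclear receptors and the circadian clock. The genes described here lie mostly outside cholesterol synthesis.

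The 13 measured hepatocyte markers all lay in the top 10% of the 20917 probe sets, with Alb (albumin) at percentile 100, whereas Adipoq (adiponectin) lay at percentile 34.1 and Lep (leptin) at 26.6. Probes differ in affinity, so these ranks are a rough check of the labelled tissue. The median deposited intensity of an array was 97.9 to 128. The arrays' median log2 signal before normalization was 6.99 ± 0.09 (SD, n = 11) on the HFD and 7.03 ± 0.09 (n = 13) on chow, a difference smaller than the SD (p = 0.299, 100000 two-sided permutations within line). Arrays 21 and 25 (chow line on chow), 22 (chow line on the HFD) and 24 (HFD line on the HFD) stood apart from the other 20 on the first principal component, which held 14.6% of the variance. The second component, with 11.2%, had a median of 7.42 in the HFD arrays and -8.70 in the chow arrays, and the diets overlapped there through chow array 26 and HFD arrays 32 and 34.

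**Figure D1:**
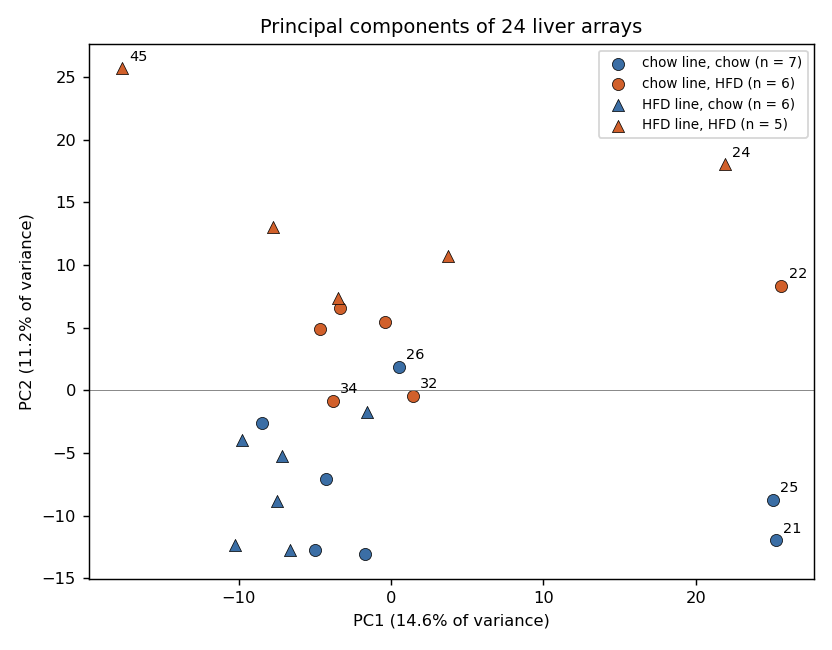
The first 2 principal components of normalized log2 signal over all probe sets, 1 point per array, with own diet by colour and line by shape. Arrays 21, 22, 24 and 25 lie to the right at 21.9 to 25.6 on the first component, and 9 of 11 HFD arrays lie above every chow array on the second.

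Own diet changed 383 of 20917 probe sets (1.83%), measured as the HFD minus chow difference in normalized log2 signal with a Benjamini-Hochberg adjusted p under 0.05 in limma. Of these, 140 rose (0.669% of all tested) and 243 fell (1.16%), which came to 124 genes that rose and 221 that fell. Cholesterol synthesis and uptake supplied 19 of the falls, from 21 measured genes of that list, and Dhcr7, which makes cholesterol from its last precursor, fell by 1.25 ± 0.07 (SE; adjusted p = 2.08e-11). The other 202 falls and all 124 rises lay outside that list. With each gene taken by 1 probe set, 1.99% of 16856 genes were called, the share to set beside the counts per list below. Most changes were small, with a median of 0.33 among the rises and -0.36 among the falls, and 11 rises and 24 falls reached 2-fold. The share of calls that were rises depended on whether the arrays were scaled. It was 36.6% after quantile normalization and 38.7% with each array centred on its median (115 rises and 182 falls). When the deposited values were used as they were, it was 19.2% (49 rises and 206 falls). All 383 kept their sign in each line, although they were selected on the effect over both lines.

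The largest rise was in Lrtm2, a leucine-rich repeat membrane protein whose gene overlaps the calcium channel subunit gene Cacna2d4. Lrtm2 had a log2 signal of 5.31, 6.18 and 8.34 (lowest, median and highest array) on chow and 6.11, 8.53 and 10.12 on the HFD. It rose by 2.14 ± 0.42 (4.42-fold, adjusted p = 0.00488), with 7 of 11 HFD arrays above every chow array and the groups overlapping. Cacna2d4 rose as well, by 0.66, and the sources used here do not say whether the probes of these overlapping genes share sequence.

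Spink1l and Spink1 encode secreted inhibitors of trypsin-like proteases and are neighbours in the rat gene order with no coding gene between them. Spink1l had a log2 signal of 5.30, 5.99 and 7.48 on chow and 7.16, 8.005 and 9.37 on the HFD. It rose by 1.93 ± 0.24 (3.80-fold, adjusted p = 2.53e-05), and 10 of 11 HFD arrays lay above every chow array. Spink1 rose by 1.06 ± 0.15 (adjusted p = 0.000125), in all 11 HFD arrays against the chow mean of their line. Its mean log2 signal was 4.88 on chow and 5.94 on the HFD, so it cleared the level of 5.72 set for named genes through the HFD group alone. Whether the probe sets of either gene also read the other transcript was not tested. Their promoter windows (250 bases before to 50 bases after the gene start, RefSeq, build GRCr8) are shown because the neighbours moved together, with the CCAAT box in capitals. They lie at chr18:36133547-36133846 (Spink1, minus strand) and chr18:36086647-36086946 (Spink1l, minus strand), and 287 of 311 aligned columns (92.3%) were identical.
Spink1: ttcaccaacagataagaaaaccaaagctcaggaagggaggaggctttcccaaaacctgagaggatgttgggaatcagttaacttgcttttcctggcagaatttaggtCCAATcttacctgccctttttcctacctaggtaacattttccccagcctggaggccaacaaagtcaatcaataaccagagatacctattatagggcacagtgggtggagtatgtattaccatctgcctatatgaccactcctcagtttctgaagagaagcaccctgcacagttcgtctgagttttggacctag
Spink1l: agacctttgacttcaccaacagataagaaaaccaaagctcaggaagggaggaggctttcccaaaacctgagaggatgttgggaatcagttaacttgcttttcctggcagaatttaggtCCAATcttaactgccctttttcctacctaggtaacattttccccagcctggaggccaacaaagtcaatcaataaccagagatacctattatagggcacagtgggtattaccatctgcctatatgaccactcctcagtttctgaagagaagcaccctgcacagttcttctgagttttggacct

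Kcnma1, the pore of the large-conductance calcium-activated potassium channel, had a log2 signal of 5.71, 7.01 and 7.71 on chow and 7.64, 8.57 and 9.58 on the HFD. It rose by 1.64 ± 0.23 (3.13-fold, adjusted p = 8.16e-05), with 9 of 11 HFD arrays above every chow array. Tox, a nuclear protein known from T cell development, had a log2 signal of 6.90, 7.96 and 8.77 on chow and 8.49, 9.20 and 9.82 on the HFD, a rise of 1.26 ± 0.18 (adjusted p = 9.38e-05). None of the 15 measured lymphocyte and natural killer cell markers passed in limma (3 at an unadjusted p under 0.05). Their summed linear signal was 1550 to 2342 on chow and 1593 to 2069 on the HFD. Many of these markers were dim, with a median percentile of 35.5 among all probe sets. Whether cell content had a part in the Tox rise was not tested.

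The remaining rises named by size were C16h10orf71 (1.51), the hair cell myosin Myo3a (0.98), Plppr1 (0.91), Pgd, an enzyme of the pentose phosphate pathway (0.88), the transcription factor genes Dmrta1 (0.86) and Zfp354a (0.86), Ky (0.74), the olfactory receptor Or51r1 (0.70), Glt1d1 (0.68) and Cyp26a1, which degrades retinoic acid (0.68). Myo3a (mean log2 signal 5.32 on chow and 6.30 on the HFD) and Dmrta1 (5.51 and 6.38) also cleared the level of 5.72 through the HFD group alone. The other probe sets of C16h10orf71 gave 0.43, 1.05 and 1.47. Those of Pgd gave -0.00 and -0.07, so the rise of Pgd rests on 1 of its 3 probe sets, and its call was lost in 8 of 24 fits with an array left out (adjusted p up to 0.0597). Without the 4 arrays that stood apart, Plppr1 (0.73, adjusted p = 0.0795), Pgd (0.77, adjusted p = 0.111) and Cyp26a1 (0.54, adjusted p = 0.0501) no longer passed.

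**Figure D2:**
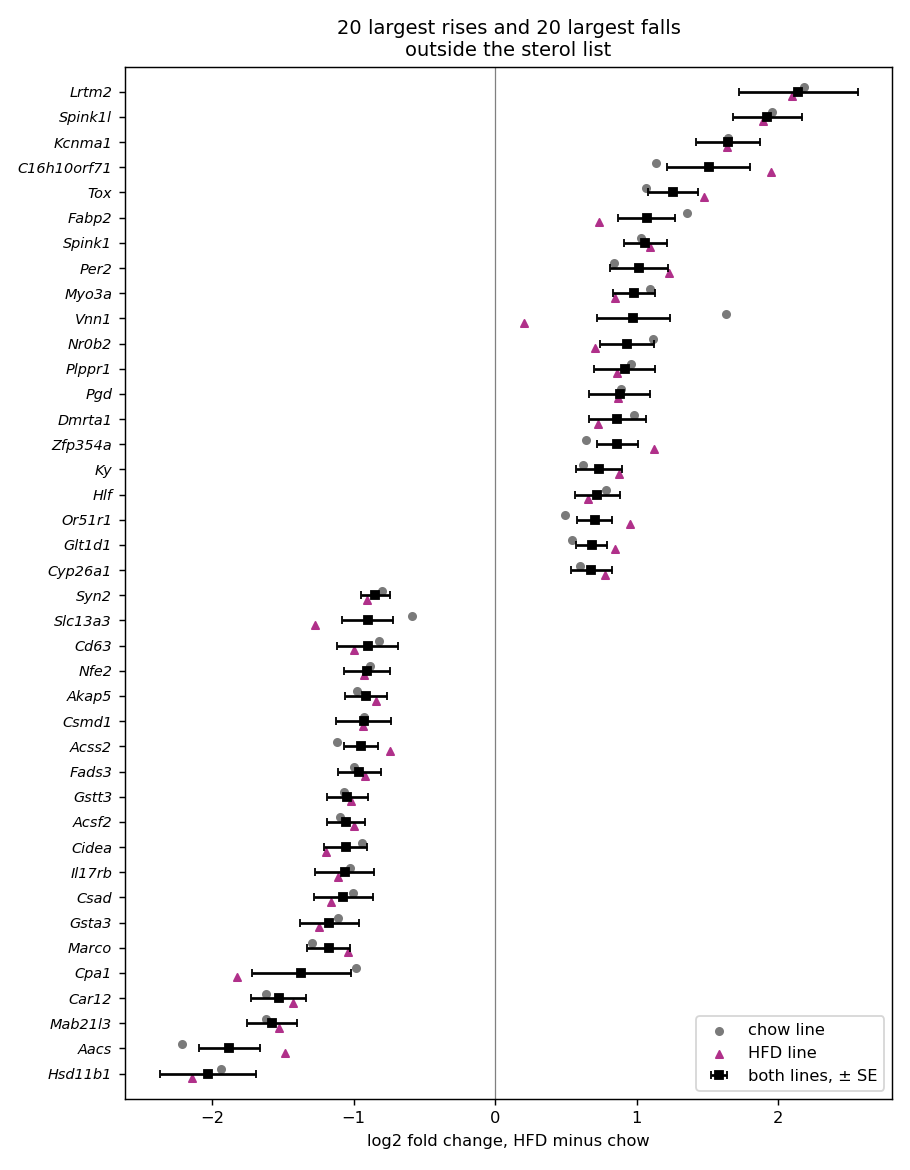
HFD minus chow log2 fold change of the 20 largest rises and 20 largest falls outside the sterol list, as the estimate over both lines with its SE (squares) and the estimate in each line (circles, chow line; triangles, HFD line). The lines lie on the same side of 0 for every gene shown, and Vnn1 has the widest gap between lines, 1.63 in the chow line and 0.20 in the HFD line.

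Clock genes moved in part. In the liver the circadian clock runs on the Bmal1 and Clock activators and the Per and Cry repressors, and its output reaches other genes through the factors Dbp, Hlf and Tef, which activate D-box elements, and Nfil3, which represses them. Of 16 measured clock and output genes, Per2 and Hlf rose and Nfil3 fell, against 119 rises and 216 falls among all 16856 genes taken by 1 probe set each. The list's median difference was 0.10, against 0.00 for all genes.

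Per2 had a log2 signal of 6.80, 7.10 and 8.16 on chow and 7.45, 8.23 and 9.62 on the HFD. It rose by 1.02 ± 0.21 (2.02-fold, adjusted p = 0.00701), with 6 of 11 HFD arrays above every chow array. Hlf rose by 0.72 ± 0.16 (adjusted p = 0.0118), and Nfil3 fell by 0.35 ± 0.08 (adjusted p = 0.0114), the latter not passing without the 4 arrays apart (adjusted p = 0.0526). Dbp (0.96), Per3 (0.92), Per1 (0.43) and Bmal1 (-0.53) did not pass, with adjusted p from 0.21 to 0.49. The labels used here give no time of day at tissue collection.

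The Per2 promoter window, shown with the D-box in capitals because factors that bind this element were among the changed genes, lies at chr9:99496944-99497243 (minus strand, GRCr8). The element starts at position -192 relative to the gene start.
Per2: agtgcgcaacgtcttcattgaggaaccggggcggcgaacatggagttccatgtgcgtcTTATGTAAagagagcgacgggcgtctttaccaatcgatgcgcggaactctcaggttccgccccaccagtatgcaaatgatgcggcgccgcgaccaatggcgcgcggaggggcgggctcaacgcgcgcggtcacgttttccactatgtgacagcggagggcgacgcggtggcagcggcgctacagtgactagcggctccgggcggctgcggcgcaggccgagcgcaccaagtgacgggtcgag
Over the 13842 measured genes with a promoter in RefSeq, 0.759% held TTATGTAA on either strand, as did 0.971% of the 103 genes that rose and 1.69% of the 177 that fell. Per2 was the 1 riser with it, and Gsta3, Cd14 and Vom1r44 were the fallers.

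Nr0b2, an orphan receptor that bile acid sensing induces and that holds bile acid synthesis back, rose. Its log2 signal was 7.60, 9.08 and 10.11 on chow and 9.51, 9.99 and 10.96 on the HFD, a rise of 0.93 ± 0.19 (1.91-fold, adjusted p = 0.00701). All 11 HFD arrays lay above the chow mean of their line, though the groups overlapped. The other 13 measured genes of bile acid synthesis and feedback did not pass, among them Cyp7a1, the rate-limiting enzyme (-0.07), Cyp8b1 (-0.14) and Nr1h4, the bile acid receptor (-0.03). Abcc3, an exporter of conjugates and bile salts from the hepatocyte, fell by 0.50 ± 0.11 (adjusted p = 0.00871). It was the 1 of 16 transporter genes that passed, against 1.99% called over all genes. The Nr0b2 promoter window, with its E-box in capitals, lies at chr5:151062910-151063209 (plus strand, GRCr8), the element starting at position -193 relative to the gene start.
Nr0b2: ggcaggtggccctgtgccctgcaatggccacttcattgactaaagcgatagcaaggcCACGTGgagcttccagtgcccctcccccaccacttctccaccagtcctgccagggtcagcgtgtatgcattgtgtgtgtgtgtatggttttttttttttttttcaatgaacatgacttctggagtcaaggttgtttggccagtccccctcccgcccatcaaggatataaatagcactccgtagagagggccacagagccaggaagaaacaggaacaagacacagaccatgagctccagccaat
CACGTG on either strand was in 13.6% of the promoters of genes that rose, 7.34% of those that fell and 7.99% of all 13842. The gene Klf15, a liver factor of amino acid and glucose metabolism chosen after its values were seen, also held one and rose by 0.47. CCAAT was in 35.0% of promoters of genes that rose, 44.6% of those that fell and 37.8% of all, and in 12 of the 15 sterol genes that fell. The core of a sterol element, TCACCCCAC, was in 0 promoters of genes that rose, 1.13% of those that fell (Hyal1 and Nipa1) and 0.39% of all. The direct-repeat core GGTCAAAGG was in 0 promoters of either group and 0.332% of all, and the NRF2 element TGACNNNGC in 17.5%, 15.8% and 13.4%. These shares are descriptions of letters in a window, with no test.

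The largest fall outside the sterol list was that of Hsd11b1, whose enzyme regenerates active glucocorticoid in the liver. Its log2 signal was 5.89, 8.68 and 9.33 on chow and 5.28, 5.95 and 7.41 on the HFD, and it fell by 2.03 ± 0.34 (4.09-fold, adjusted p = 0.00101). All 11 HFD arrays lay below the chow mean of their line, and 5 lay below every chow array. Of the 10 other measured genes of glucocorticoid action, 0 passed in limma, with 2 (Cdkn1a and Zbtb16) at an unadjusted p under 0.05. The receptor Nr3c1 (-0.03), its targets Fkbp5 (-0.16), Tsc22d3 (-0.02) and Tat (0.02), and H6pd, which supplies the cofactor of the Hsd11b1 enzyme (-0.02), stood near 0, and Cdkn1a (-0.92, adjusted p = 0.091) did not pass.

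Of 7 measured genes of acetyl-CoA supply and ketone bodies, Aacs and Acss2 fell, and the list's median was -0.15 (-0.31 in the chow line and 0.03 in the HFD line). Aacs, which activates acetoacetate in the cytosol, had a log2 signal of 7.42, 8.59 and 9.33 on chow and 5.88, 6.53 and 7.97 on the HFD. It fell by 1.88 ± 0.22 (3.68-fold, adjusted p = 5.84e-06), with 10 of 11 HFD arrays below every chow array. Acss2, which makes acetyl-CoA from acetate, fell by 0.95 ± 0.12 (adjusted p = 2.53e-05). The other 5 measured genes of that list did not pass, including Acly at -0.21 and Me1 at -0.15. Acsf2, an acyl-CoA synthetase family member, fell by 1.05 ± 0.13 (adjusted p = 2.53e-05), and Fads3, of the fatty acid desaturase family, by 0.96 ± 0.15 (adjusted p = 0.000383).

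Fatty acid synthesis and desaturation itself had 0 of 12 genes passing in limma (5 at an unadjusted p under 0.05, median 0.13). The list's median was -0.01 in the chow line and 0.24 in the HFD line. Pnpla3, a lipase-family gene that follows insulin and carbohydrate intake, differed by 1.45 ± 0.50 (adjusted p = 0.153), with 0.77 in the chow line and 2.25 in the HFD line. Elovl2 differed by 0.38 and Scd by 0.19. In triglyceride synthesis, Dgat2, which adds the last acyl chain, rose by 0.19 ± 0.04 (adjusted p = 0.00869), a call lost without normalization (0.21, adjusted p = 0.0713). It was the 1 of 11 genes that passed, against 1.99% called over all genes. Among 14 lipid droplet and lipolysis genes, Cidea, a droplet fusion protein, fell by 1.06 ± 0.15 (adjusted p = 0.000142), while Plin2 (-0.12), Plin5 (0.01) and Cidec (0.06) did not pass.

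Of the fatty acid binding proteins, 2 that are known from other tissues rose. Fabp2, the intestinal form, had a log2 signal of 6.62, 7.48 and 8.46 on chow and 7.37, 8.53 and 9.33 on the HFD, a rise of 1.07 ± 0.20 (2.10-fold, adjusted p = 0.00309). Fabp4, the adipocyte and macrophage form, rose by 0.63 ± 0.16 (adjusted p = 0.0398), and that call was lost in 16 of 24 fits with an array left out (adjusted p 0.0105 to 0.0719). Fabp1, the main liver form, was at 0.05 and did not pass. Of the other 10 measured adipocyte markers, Pck1 fell by 0.48 ± 0.12 (adjusted p = 0.0308, up to 0.058 with an array left out) and the rest did not pass, with Adipoq at 0.11 and Lep at 0.06. The summed linear signal of all 11 adipocyte markers was 4699 to 7646 on chow and 3936 to 7291 on the HFD, a sum that contains the liver gene Pck1. The fatty acid transporter Slc27a4 fell by 0.20 ± 0.05 (adjusted p = 0.0445), a call lost in 18 of the 24 fits with an array left out (adjusted p up to 0.0834).

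Of the 19 genes of mitochondrial beta-oxidation, 18 were higher on the HFD, against 8652 of all 16856 genes, and 0 passed in limma (3 at an unadjusted p under 0.05). Their median was 0.06, and 15 of 19 were higher when the deposited values were used without normalization. Acadl (0.16) and Hadh (0.10) had the smallest p, with adjusted p of 0.143 and 0.169. The median was 0.13 in the chow line and -0.03 in the HFD line. Among 16 PPAR alpha targets and peroxisomal genes, Vnn1, a pantetheinase, rose by 0.97 ± 0.26 (adjusted p = 0.0471), and Cyp4a8 (0.58) and Angptl4 (-0.34) did not pass. The median of that list was 0.22 in the chow line and -0.14 in the HFD line. The call of Vnn1 was lost in 17 of 24 fits with an array left out (adjusted p 0.00464 to 0.0873).

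Among genes of conjugation and antioxidant defence, 3 glutathione transferases and Nqo1 fell. Gstt3, a theta-class glutathione transferase, had a log2 signal of 10.73, 11.25 and 11.75 on chow and 9.19, 10.25 and 10.66 on the HFD. It fell by 1.05 ± 0.14 (2.06-fold, adjusted p = 8.16e-05), and the diet groups did not overlap, which held for 15 of all 20917 probe sets (0.0717%). Gsta3 fell by 1.17 ± 0.21 (adjusted p = 0.00176) and Gstm2 by 0.36 ± 0.06 (adjusted p = 0.000876). Of 26 glutathione, glucuronosyl and sulfo transferases these 3 fell and 0 rose, against 216 falls among all 16856 genes, and the list's median was -0.08. Gstm6 (-0.35) and Gstm6l (-0.39), mu-class neighbours of Gstm2 outside the list, also fell, and the probes of these close relatives may cross-hybridise. Nqo1, a quinone reductase, fell by 0.59 ± 0.14 (adjusted p = 0.022) as the 1 of 23 NRF2 genes that passed, and not without the 4 arrays apart (adjusted p = 0.0545). A count of 1 of 23 is near the share called over all genes (1.99%). Of those 23 genes 20 were lower, against 8204 of all 16856 genes, with Gclm at -0.32, Hmox1 at -0.25 and Nfe2l2, the gene of NRF2, at 0.01. Among 27 cytochrome P450 genes of families 1 to 3, Cyp2c22 alone passed, against 1.99% called over all genes. It rose by 0.39 ± 0.09 (adjusted p = 0.0279). That call was lost without array 31, 40 or 46 (adjusted p up to 0.0528), and Cyp3a23-3a1 (0.62), Cyp2c11 (0.55) and Cyp2e1 (0.02) did not pass.

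**Figure D3:**
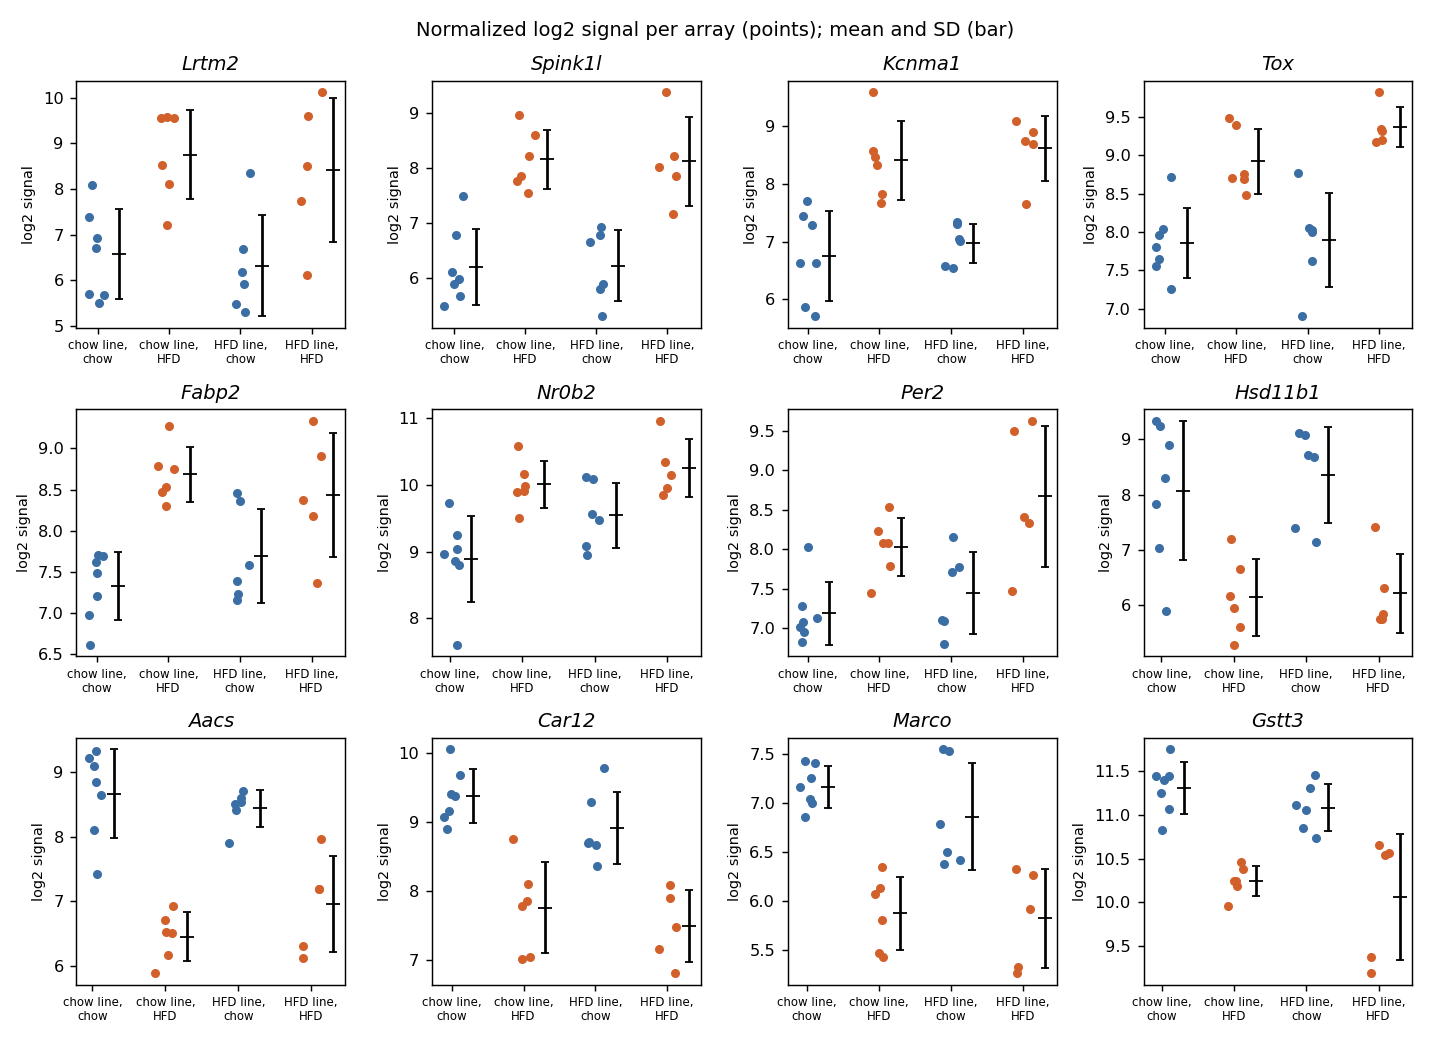
Normalized log2 signal of 12 genes, 1 point per array in the 4 groups (blue, chow; orange, HFD), with the mean and SD of each group as a bar. Marco and Gstt3 show no overlap between the diets, whereas Lrtm2, Per2 and Nr0b2 rose with overlapping groups.

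Further falls named by size were in single genes. Car12, a membrane carbonic anhydrase, had a log2 signal of 8.36, 9.15 and 10.05 on chow and 6.80, 7.78 and 8.75 on the HFD, and it fell by 1.53 ± 0.19 (2.89-fold, adjusted p = 2.48e-05). In 10 of 11 HFD arrays it lay below every chow array, and the other 12 carbonic anhydrases measured did not pass. Csad, an enzyme of taurine synthesis, fell by 1.07 and the dicarboxylate carrier Slc13a3 by 0.90. Mab21l3 fell by 1.58 ± 0.18 (adjusted p = 4.2e-06), the interleukin receptor Il17rb by 1.06, Csmd1 by 0.93, the kinase anchor Akap5 by 0.91 and the blood cell factor Nfe2 by 0.91. Il17rb lies next to Cacna1d, which rose by 0.29, and Akap5 lies next to Mthfd1, an enzyme of folate metabolism that fell by 0.35 ± 0.07 (adjusted p = 0.00524). Cd63, a tetraspanin of late endosomes, fell by 0.90 ± 0.22 (adjusted p = 0.028), a call lost without array 22, 27, 40 or 44 (adjusted p up to 0.0572).

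The neighbours Syn2 and Pparg both fell. Syn2, a synapsin gene, fell by 0.85 ± 0.10 (adjusted p = 1.8e-05) with no overlap between the diets, 5.97 to 6.96 on chow and 5.23 to 5.87 on the HFD. Its mean was 6.41 on chow and 5.56 on the HFD, so it cleared the level of 5.72 for named genes through the chow group alone. Pparg, the nuclear receptor of fat storage, fell by 0.64 ± 0.14 (adjusted p = 0.013). It was the 1 of 20 nuclear receptor genes of the list that passed, against 1.99% called over all genes. The imprinted growth restrainer Phlda2 fell by 0.63 ± 0.08 (adjusted p = 1.92e-05), and the other 10 imprinted growth genes did not pass.

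Cpa1, a carboxypeptidase known from the exocrine pancreas, fell by 1.37 ± 0.35 (adjusted p = 0.0404), from 12.00 ± 0.62 (SD, n = 13) to 10.64 ± 1.43 (n = 11). The other 12 measured acinar markers lay between -0.08 and 0.10, none passed, and Prss1 (trypsinogen) had a mean signal at percentile 7.83 of all probe sets. The summed linear signal of all 13 was 2796 to 10210 on chow and 931.4 to 4694 on the HFD, a sum that includes Cpa1. The Cpa1 call was lost in 14 of 24 fits with an array left out (adjusted p up to 0.0721) and without the 4 arrays apart (adjusted p = 0.168).

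Macrophage markers were lower on the HFD. Marco, a scavenger receptor of resident macrophages, had a log2 signal of 6.38, 7.04 and 7.55 on chow and 5.26, 5.92 and 6.35 on the HFD, so the groups did not overlap. It fell by 1.18 ± 0.16 (2.26-fold, adjusted p = 4.43e-05). Cd5l, a secreted macrophage protein, fell by 0.65 ± 0.13 (adjusted p = 0.00524), Cd14, the endotoxin co-receptor, by 0.37 ± 0.09 (adjusted p = 0.0183), and Vsig4, a complement receptor of Kupffer cells, by 0.51 ± 0.13 (adjusted p = 0.0354). The Vsig4 call was lost in 10 of 24 fits with an array left out and without the 4 arrays apart (adjusted p = 0.12). Over all 16856 genes, 8204 were lower and 216 fell. On the list of Kupffer cell and macrophage markers, all 15 measured genes were lower and 4 of them fell, with a median of -0.28 against 0.00 for all genes. The median was -0.42 in the chow line and -0.16 in the HFD line.

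The summed linear signal of the macrophage markers was 7698, 10020 and 12970 (lowest, median and highest) on chow and 6318, 8345 and 10070 on the HFD. That of the 13 hepatocyte markers was 86530 to 91150 on chow and 87500 to 90390 on the HFD. Quantile normalization gives every array the same top values, so the hepatocyte sum had little room to differ between diets. Without normalization 12 of the 13 were higher on the HFD (median 0.07, against -0.02 over all probe sets). With each array centred on its median all 13 were higher (median 0.11, against 0.02). In tissue RNA, fewer cells of a type and less RNA per cell cannot be told apart. The other 11 markers did not pass, with Clec4f at -0.45 the lowest, Csf1r at -0.26, Cd68 at -0.20 and Mrc1 at -0.03 the highest. Other falls outside the naming rule, chosen after their values were seen, were in genes that macrophages express, namely the lysosomal protease Ctss (-0.47), the adhesion receptor Adgre5 (-0.48), the anaphylatoxin receptor C3ar1 (-0.34), the ficolin Fcna (-0.38) and the inflammasome adaptor Pycard (-0.32). Trem2, a macrophage lipid receptor, rose by 0.24.

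Among all 16856 genes 8204 were lower and 216 fell, and 1.99% were called in either direction. The share called was 10.5% of immunoproteasome and antigen presentation genes and 11.8% of immediate early and stress genes. It was 8.33% of acute-phase genes and 0% of interferon-stimulated genes. The macrophage marker sum was also lower on the HFD, and its part in these values was not tested. Of 19 immunoproteasome and antigen presentation genes, Psmb9 (-0.32, adjusted p = 0.00871) and Psmb8 (-0.38, adjusted p = 0.026), neighbouring genes of inducible proteasome subunits, fell and 17 were lower. The Psmb8 call was lost without array 31 or 46 (adjusted p up to 0.0512). Of 28 interferon-stimulated genes 26 were lower and 0 passed in limma (6 at an unadjusted p under 0.05, median -0.12), with Irf1, an interferon response factor, at -0.45 (adjusted p = 0.0511). Of 17 immediate early and stress genes 13 were lower (median -0.20), and Ier3 (-0.56) and Ier2 (-0.45) fell. Without the 4 arrays apart, Ier3 (adjusted p = 0.0532) and Ier2 (adjusted p = 0.109) did not pass, and Ier2 was also lost in 15 of 24 fits with an array left out (adjusted p up to 0.0776). Of 24 acute-phase genes, whose median was -0.03 and turned to 0.02 with each array centred on its median, Orm1, which encodes a plasma acid glycoprotein, fell by 0.85 ± 0.15 (adjusted p = 0.00145) and Fga, a fibrinogen chain, by 0.12 ± 0.03 (adjusted p = 0.0301). The Fga call was lost without the 4 arrays apart (adjusted p = 0.0822) and in 8 of 24 fits with an array left out (adjusted p up to 0.0586).

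**Figure D4:**
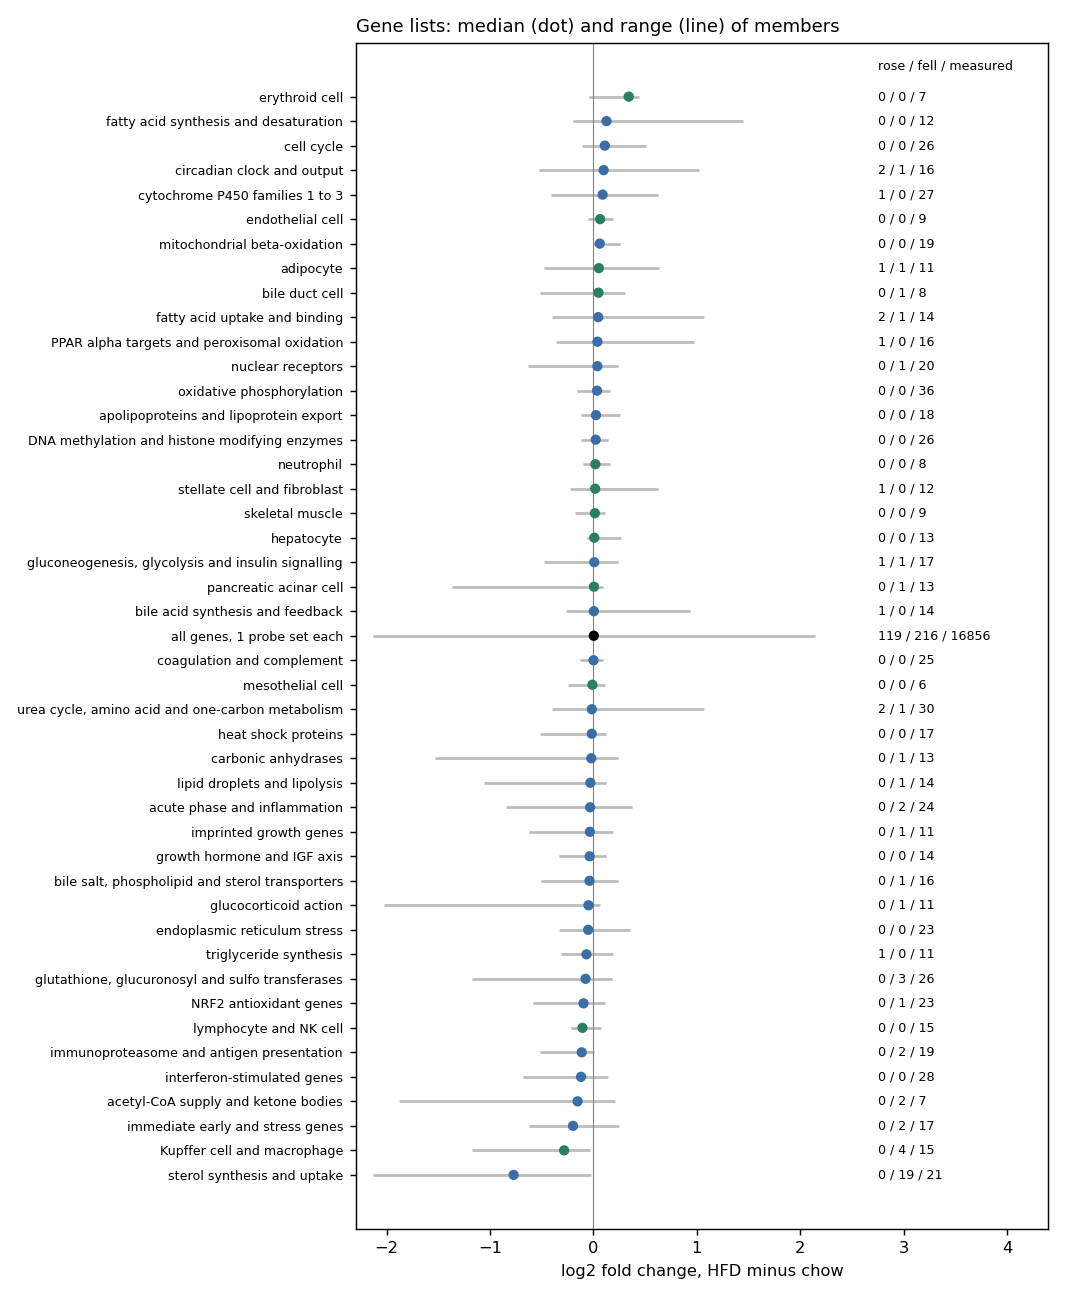
Median (dot) and range (line) of HFD minus chow log2 fold change over the measured members of 44 gene lists (blue, pathways; green, cell type markers) and over all genes (black), with the numbers that rose, fell and were measured. The sterol list has the lowest median, -0.77, followed by the macrophage markers at -0.28; the range of all genes is wide because it spans 16856 genes.

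Intermediary metabolism outside lipids changed in single genes. Pck1, which commits carbon to gluconeogenesis, fell, a call lost in 7 of 24 fits with an array left out (adjusted p up to 0.058) and with each array centred on its median. Gcgr, the glucagon receptor, rose by 0.21 ± 0.05 (adjusted p = 0.0446). Only Pck1 and Gcgr passed out of 17 genes of glucose handling, against 1.99% called over all genes. The Gcgr call was lost in 19 of 24 fits with an array left out (adjusted p up to 0.0862). Of 30 genes of amino acid and one-carbon metabolism, Mthfd1 fell, the mitochondrial folate enzyme Mthfd2 rose by 0.48 ± 0.11 (adjusted p = 0.0163) and Tdo2, which opens the tryptophan ring, rose by 0.20 ± 0.05 (adjusted p = 0.0404). The Tdo2 call was lost in 17 of 24 fits with an array left out, and neither rise passed without normalization (adjusted p = 0.0734 and 0.128). Of the 30 genes, 11 had an unadjusted p under 0.05 in limma. The largest difference in that list, 1.07, was in a gene that did not pass.

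Several lists had 0 members passing in limma. They were the growth hormone and IGF axis (2 of 14 genes at an unadjusted p under 0.05), apolipoproteins (4 of 18), coagulation and complement (5 of 25), endoplasmic reticulum stress (5 of 23), heat shock (4 of 17), cell cycle (8 of 26), oxidative phosphorylation (4 of 36) and DNA methylation and histone modification (4 of 26), with medians from -0.05 to 0.11. Over all probe sets, 2910 of 20917 had an unadjusted p under 0.05. Ccnd1, which encodes cyclin D1, was at 0.51 (adjusted p = 0.119), and Apoa4 was at 0.25 (adjusted p = 0.138). In limma the markers of hepatocytes (2 of 13 at an unadjusted p under 0.05), neutrophils (1 of 8), skeletal muscle (1 of 9), endothelial cells (0 of 9), erythroid cells (0 of 7) and mesothelium (0 of 6) likewise had 0 passing. The erythroid median was 0.34, with sums of 2259 to 6674 on chow and 3522 to 10680 on the HFD. Rgs5, a pericyte marker, rose by 0.62 ± 0.13 (adjusted p = 0.0078) among 12 stellate cell and fibroblast markers, whose sum was 3001 to 4171 on chow and 2938 to 4394 on the HFD. Epcam, a bile duct marker, fell by 0.52 ± 0.11 (adjusted p = 0.0134), while the other 7 bile duct markers were higher without passing and the sum of all 8 was 802.8 to 1214 on chow and 830.3 to 1584 on the HFD.

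The own-diet effect was compared between the lines by its interaction with line, and 0 of 20917 probe sets passed in limma (smallest adjusted p = 0.146, with 1403 at an unadjusted p under 0.05). Of the 383 called probe sets, 20 had an unadjusted interaction p under 0.05. Vnn1 was among them, with 1.63 in the chow line and 0.20 in the HFD line (unadjusted p = 0.00358, adjusted p = 0.527). The smallest interaction p belonged to Arpc1b, an actin nucleation subunit (-0.42 in the chow line and 0.18 in the HFD line), followed by Stx6 (-0.16 and 0.27) and Romo1 (-0.14 and 0.35), with adjusted p of 0.146, 0.311 and 0.433. Missing the threshold does not show that the lines respond alike. Lrtm2 differed by 2.18 in the chow line and 2.10 in the HFD line, Kcnma1 by 1.65 and 1.64, and Hsd11b1 by -1.94 and -2.14.

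**Figure D5:**
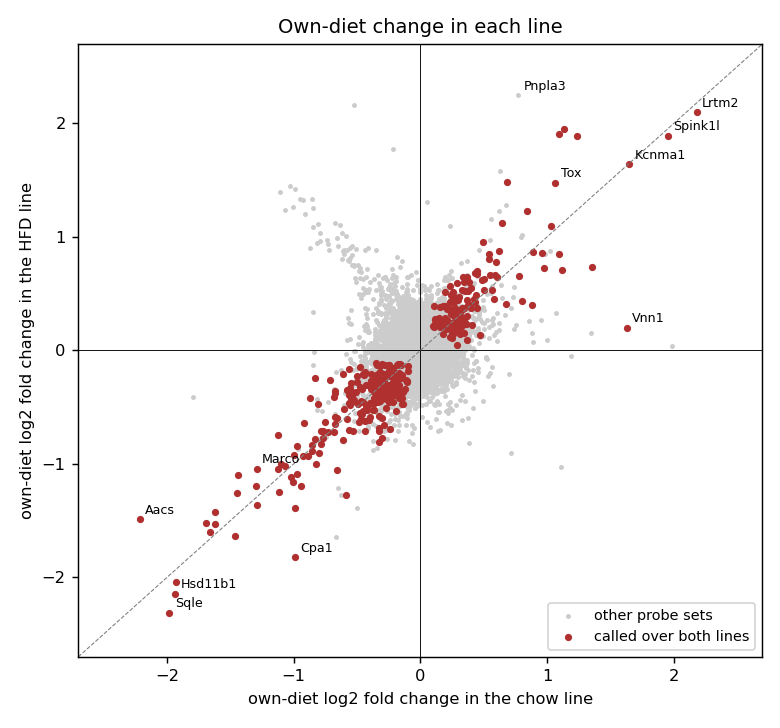
Own-diet log2 fold change in the chow line (horizontal) and in the HFD line (vertical) for all probe sets, with those called over both lines in red and the line of equal change dashed. All 383 called probe sets lie in the lower left or upper right quadrant, and a string of uncalled probe sets runs to the upper left, where the HFD value is below chow in the chow line and above it in the HFD line.

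The diet groups did not overlap for 15 probe sets, and these were not the ones with the largest changes in all cases. They included 13 falls, among them the sterol genes Acat2, Hsd17b7, Dhcr7, Cyp51, Stard4 and Fdft1, and outside that list Marco, Gstt3, Syn2, Adgre5 (-0.48) and Wfs1, an endoplasmic reticulum membrane protein (-0.41). Of the 2 rises, 1 was Tsc22d1, a leucine zipper protein, from 10.52 to 11.54 on chow and 11.57 to 11.78 on the HFD (0.48, adjusted p = 0.000257), and the other has no single gene name here. Hsd11b1 and Lrtm2, with larger differences, had overlapping groups.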

How the data were processed

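For each of 24 liver arrays the authors deposited linear intensity values by probe set. The submitters' processing notes name PLIER and Affymetrix Expression Console. Which versions, background correction and normalization were used is not given in the sources used here. From these, log2(intensity + 16) was computed and quantile-normalized over all 20917 probe sets, none filtered. The offset understates changes of dim probe sets. Own diet was fitted with the grandfather's line as a covariate in limma 3.58.1 (R 4.3.3; lmFit, eBayes with an intensity trend), with two-sided p-values adjusted by Benjamini-Hochberg over all probe sets and a threshold of 0.05. The interaction came from 4 group means. The ± after a log2 difference is its SE unless SD is named. The number of arrays limits the precision. The fit was also run on simulated data with independent noise for each probe set and array. That simulation held no related females and no arrays standing apart, so it cannot show the error rate under those conditions.

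Probe sets were named by the platform annotation with symbols updated from RefSeq: 18197 probe sets had 1 gene (18052 matched), 960 several and 1760 none. For the 44 lists and for counts over all genes, the probe set of highest mean signal stood for each gene, and list members without one are not analysed here. The named genes were the 20 largest rises and 20 largest falls past the threshold outside the sterol list, on single-symbol probe sets whose higher diet group had a mean at or above the 25th percentile of all probe set means (log2 5.72), and not named LOC, RGD or ENSRNO; up to 4 passing members of each list, or 2 with the smallest p where none passed; the 3 smallest interaction p; and 3 sterol genes. The comparison, lists, naming rule and alternatives were chosen with earlier results of these data known. Motifs were searched as exact letters on both strands. Alternatives covered normalization, dim-probe filters, offsets, eBayes options, array weights, the 4 arrays apart, 1 probe set per gene, the line term and each array left out.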

Additional observations from a re-analysis of the deposited data

Results flagged for a closer look

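For each named gene and for the array median intensity, the arrays of each group were checked for a highest or lowest value far from its nearest neighbour relative to the group's range. Of 436 groups checked, 31 had such an array, on 14 arrays. Chance gives about 1 in 20 groups.

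Array 47 (HFD line on the HFD) accounted for 6. In log2 signal it was high for Tox (9.82, nearest array 9.35), Cidea (8.51, nearest 8.05), Fads3 (8.43, nearest 7.55), Abcc3 (7.62, nearest 7.12) and Vsig4 (9.89, nearest 9.34), and low for Mthfd1 (10.29, nearest 10.55). For Cidea, Fads3, Abcc3 and Vsig4, which fell on the HFD, this array lay toward the chow level. In the same group, array 45 was low for Kcnma1 (7.64, nearest 8.68) and Setd2 (9.31, nearest 9.57), and array 24 was high for Ckm (7.59, nearest 7.24).

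Among chow-line females on chow, array 30 was high for C16h10orf71 (8.11, nearest 6.24), Per2 (8.03, nearest 7.28) and Sdhb (10.92, nearest 10.78) and low for Pck1 (12.16, nearest 12.61), and array 27 was high for Gcgr (11.08, nearest 10.84). The C16h10orf71, Per2 and Pck1 values of array 30 lay toward the HFD level. Among HFD-line females on chow, array 39 was high for Ky (10.03, nearest 9.24), Fabp4 (6.55, nearest 5.75) and Cyp2c22 (12.14, nearest 11.48) and low for Pck1 (11.92, nearest 12.49), in each case toward the HFD level. Array 38 was high for Zfp354a (8.19, nearest 7.52), array 41 low for Herc6 (7.21, nearest 8.01), and array 42 low for Aacs (7.90, nearest 8.41) and high for Arpc1b (9.98, nearest 9.89).

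Among chow-line females on the HFD, array 34 was high for Vnn1 (10.05, nearest 9.36), low for Vsig4 (8.50, nearest 9.15) and low in median intensity (97.9, nearest 113.8). Array 35 was high for Pparg (6.88, nearest 6.03) and Prf1 (6.85, nearest 6.53) and low for Gpm6a (6.23, nearest 7.83). Array 31 was high for Arpc1b (10.17, nearest 9.89), array 32 high for Slc27a4 (8.08, nearest 7.91), and array 33 low for Tdo2 (12.19, nearest 12.44).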

How the results depend on the processing

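All 383 called probe sets kept their sign under every alternative that tested them. The 140 rises became 49 without normalization, 238 with the 4 arrays apart as a block, 23 within the chow line and 30 within the HFD line, and the 243 falls became 63 and 53 within those lines, fits with fewer arrays per contrast. Without normalization 235 of the 383 were also called, with the 4 arrays as a block all 383, and without those arrays 268 (150 rises and 219 falls in all). The other alternatives gave 115 to 200 rises and 182 to 340 falls. Leaving out 1 array gave 105 (without array 29) to 168 (without array 24) rises, 174 (without array 42) to 256 (without array 25) falls and 0 to 1 interaction calls (1 without array 31), and 244 of the 383 (92 rises, 152 falls) were called in all 24 such fits. The other alternatives gave 0 interaction calls, with 686 to 1912 probe sets at an unadjusted p under 0.05. For the named genes, 1540 of the values under other settings kept their side of the threshold, 129 lost it, 28 gained it and 5 changed sign; with 1 array left out, 2409 kept it, 158 lost it, 25 gained it and 0 changed sign. The sign changes were in genes that did not pass: Ckm (-0.0026), Stx6 (-0.16) and Romo1 (-0.14) within the chow line, Arpc1b (0.18) within the HFD line and Stx6 (-0.014) without normalization. Their cause was not tested. No paired analysis was possible because the labels give no litter or grandfather by which females could be paired.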

Other observations

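A set of probe sets differed by own diet in opposite directions in the lines. Chosen after their values were seen, 43 probe sets were lower by more than 0.5 (log2) on the HFD in the chow line and higher by more than 0.5 in the HFD line, against 2 with the reverse pattern. None of the 43 passed the interaction test (adjusted p 0.527 to 0.673). They held 9 probe sets of Smokxl2 and 5 of 4930488N24Rikl, names that the annotation gives to several probe sets, 2 of Dlg5l17, and 24 without a single gene name. The median log2 signal over the 43 was 8.63 in array 45 (HFD line on the HFD), 7.78 and 7.17 in arrays 26 and 27 (chow line on chow) and 6.96 in array 24 (HFD line on the HFD), and 5.65 to 6.45 in the other 20. The 4 arrays with the highest values are not the same 4 that stood apart on the first principal component, although array 24 belongs to both.

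Scd2, a stearoyl-CoA desaturase, had the same pattern with other arrays behind it. Its log2 signal was 8.38, 9.51 and 11.13 (lowest, median and highest array) in chow-line females on chow and 8.04, 8.84 and 11.01 on the HFD, and 7.80, 8.52 and 10.28 in HFD-line females on chow and 9.47, 11.26 and 11.68 on the HFD. The difference was -0.53 in the chow line and 2.16 in the HFD line (adjusted p = 0.527 for the interaction in limma), and all groups overlapped.

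Among called rises outside the lists, chosen after their values were seen, were the cohesin acetyltransferase Esco2 on 3 probe sets (0.33 to 0.36), the survival factor Bcl2l1 on 2 (0.39 and 0.43), the glycogen-targeting phosphatase subunit Ppp1r3b (0.46) and the chromatin protein Setbp1 (0.55). The riboflavin kinase gene Rfk fell on 3 probe sets (-0.14 to -0.15), and the kinesin gene Kif26b on 3 (-0.25 to -0.49).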
